A study of Homo sapiens with 6 samples.

Results

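Interferon-stimulated genes are the genes that a cell switches on after interferon has bound its receptor. The set described here held 33 of them, from the IFIT, MX, OAS and IFITM families to nucleic acid sensors and interferon regulatory factors, and it was chosen by symbol in the platform annotation, in which 19775 genes have a probe set that names them alone. Of the 33 genes, 32 had at least 1 probe set that named that gene alone, 55 probe sets among the 54675 of the array. STAT2 was not analysed here, and a further 2 probe sets that named a member together with another gene were not used. RNA came from K562, an established line of erythroblastic leukemia, as 3 arrays of parental cells sensitive to methotrexate (MTX) and 3 arrays of cells resistant to it. The question of the comparison was how expression differed between cells that had acquired resistance to MTX, an antifolate used in cancer treatment, and the sensitive cells they came from.

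Both groups were the same line, and neither an engineered allele nor an interferon treatment is named for them. The resistant cells were 1 line, obtained by raising MTX in steps and labelled resistant to 10e-5 M. That spelling is the label's, and read as a number it is higher than the concentration in the study's methods. Their medium lacked hypoxanthine, thymidine and glycine and its serum was dialysed, while the parental cells grew in Ham's F12 with ordinary serum, so the effects of resistance and of the medium cannot be told apart. The study describes triplicate samples and the labels do not name separate cultures, so the p-values measure the spread between these samples, which may be technical. In bulk RNA, fewer cells expressing a gene and less RNA per cell cannot be told apart.

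Type I interferons bind a receptor made of IFNAR1 and IFNAR2, whose kinases are TYK2 and JAK1. Their signal leads to the complex ISGF3, with IRF9 as its DNA-binding partner, which binds the interferon-stimulated response element (ISRE) in promoters. Interferon gamma acts through a receptor of IFNGR1 and IFNGR2 and through another promoter element, the gamma-activated site (GAS). The products block virus entry, sense viral nucleic acid, degrade RNA or restrain translation, and many are present at a low level in cells that have met no interferon.

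Promoters were read because the letters that ISGF3 binds are what many of these genes are known to share and were no part of how they were chosen. RefSeq promoters of build GRCh38.p14, each running from 250 bases before to 50 bases after an annotated start, were found for 25 of the 32 genes, 33 promoters in all. IFIT2, MX2, OAS2, OASL, USP18, IFITM2 and IRF7 were not matched. An ISRE-type motif, here GAAA, any 2 bases and GAAA again on either strand, was present in a promoter of 18 of the 25 genes (72.0%), against 4.38% of the 27305 genes in the table. By promoter the counts were 22 of 33 (66.7%) against 3.57% of 35116. The GAS-type motif, TTC, any 3 bases and GAA, which reads the same on both strands, was present in 8 of 25 genes (32.0%) against 9.38%. It can share bases with an ISRE-type match, and overlapping ISRE-type matches were counted separately. By that count 13 genes had 2 or more ISRE-type matches in 1 promoter. OAS1, IRF1, IRF9, RIGI, IFI16, IFI35 and XAF1 had no ISRE-type match in these windows. A match is a description of letters and not evidence of binding.

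The 150 bases before the start are printed for the genes with the lowest adjusted p (HERC5 and IFITM1), for members with high signal (IFITM3, BST2 and ISG15) and for the gene whose signal differed most between arrays of 1 group (IFIT1), in the 5′ to 3′ direction of the gene, with ISRE-type matches in capitals. The positions, in the same order, are chr4:88456969-88457118 on the + strand, chr11:313890-314039 on the + strand, chr11:320861-321010 on the - strand, chr19:17405631-17405780 on the - strand, chr1:1013347-1013496 on the + strand and chr10:89392473-89392622 on the + strand.
HERC5: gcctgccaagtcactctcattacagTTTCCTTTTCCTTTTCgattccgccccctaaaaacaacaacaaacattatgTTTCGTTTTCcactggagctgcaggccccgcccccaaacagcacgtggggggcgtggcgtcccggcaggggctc
IFITM1: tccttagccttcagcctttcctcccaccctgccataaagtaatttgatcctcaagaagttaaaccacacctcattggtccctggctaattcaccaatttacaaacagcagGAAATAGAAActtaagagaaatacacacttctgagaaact
IFITM3: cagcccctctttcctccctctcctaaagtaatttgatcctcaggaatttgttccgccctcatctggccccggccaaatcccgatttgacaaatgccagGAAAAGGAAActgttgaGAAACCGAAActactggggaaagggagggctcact
BST2: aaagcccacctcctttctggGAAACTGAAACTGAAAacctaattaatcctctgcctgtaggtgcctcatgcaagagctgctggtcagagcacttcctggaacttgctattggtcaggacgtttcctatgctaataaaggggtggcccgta
ISG15: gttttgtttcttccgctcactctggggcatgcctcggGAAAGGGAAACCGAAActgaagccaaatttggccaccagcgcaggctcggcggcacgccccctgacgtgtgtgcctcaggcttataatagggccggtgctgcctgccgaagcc
IFIT1: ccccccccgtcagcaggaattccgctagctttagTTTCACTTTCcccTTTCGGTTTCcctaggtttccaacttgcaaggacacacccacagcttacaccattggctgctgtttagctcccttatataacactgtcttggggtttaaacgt
In HERC5 and IFIT1 the motif lay on the opposite strand and therefore appears as its reverse complement. HERC5 had 3 matches, 2 of them overlapping, and the pair of matches in BST2 and in ISG15 also overlapped. IFITM1 had a further match that began 6 bases before the start and reached past it, so it is not in capitals.

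**Figure D1:**
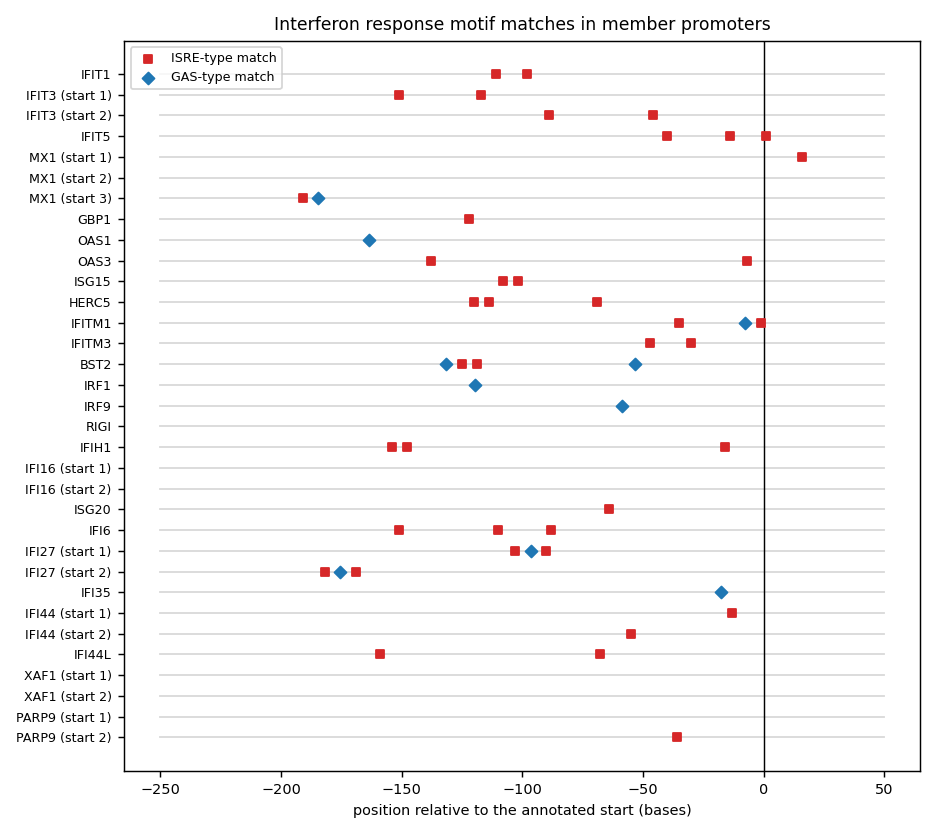
Positions of ISRE-type (squares) and GAS-type (diamonds) matches in the 33 promoters of 25 interferon-stimulated genes, in bases relative to the annotated start (vertical line), with 1 row per promoter. ISRE-type matches appear in 22 of the 33 rows and GAS-type matches in 9, and the rows of RIGI, IFI16 and XAF1 hold neither.

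Signals are given as multiples of the median signal of the array they were measured on. The K562 label was checked first: the 8 erythroid markers with a probe set summed to between 1696 and 1778 array medians in the parental arrays and between 1138 and 1361 in the resistant arrays, and 1 of the 8 was called lower, the embryonic globin HBE1. HBE1 averaged 600.5 in the parental and 61.6 in the resistant arrays, and 3 of the 8 markers had a difference above 0. Parental array 1 stood apart from its group. Over the tested probe sets its Spearman correlation was 0.899 with parental array 2 and 0.889 with parental array 3, against 0.969 between arrays 2 and 3 and 0.941 to 0.968 among the resistant arrays. Markers of other cell types were also present: the 13 leukocyte markers with a probe set, 5 of them tested, summed to 157 in parental array 1, 101.6 in array 2 and 100.9 in array 3, and to between 26.8 and 35.1 in the resistant arrays, with CD14, CD2, HLA-DRA and NKG7 under the median of every array. PTPRC, the pan-leukocyte phosphatase CD45, was at 60.2 in parental array 1, at 0.374 and 0.402 in the other parental arrays, and at 6.504, 7.62 and 9.598 in the resistant arrays, so it did not follow the lower sum in resistant cells. Of the 5 tested, 2 had every resistant array below every parental array, against 14.2% of all genes, and neither was called. CD3D was at 50.3, 31.9 and 35.2 in the parental arrays and at 0.919, 2.14 and 0.0784 in the resistant arrays. LYZ was at 42.1, 60.9 and 60.5 and at 21.3, 19.4 and 10.1. The 8 epithelial markers summed to 637, 337 and 269 in parental arrays 1, 2 and 3 and to between 222 and 307 in the resistant arrays. CDH1 was at 21.8, 2.01 and 0.717 in the parental arrays and at most 0.373 in the resistant arrays. EPCAM was at 9.53, 1.19 and 0.307 and at most 0.471. KRT8, KRT18 and KRT19 were also highest in parental array 1, and KRT7, the other marker tested, was not. The 8 fibroblast markers summed to between 40.8 and 52.8 in the parental arrays and between 14.5 and 25.1 in the resistant arrays, with LUM under the median of every array. The part of these differences in the values of the interferon-stimulated genes was not tested, and where leaving out parental array 1 changed a call or a sign among the tested probe sets, the value without it is given too.

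Of the 55 probe sets, 18 (32.7%) exceeded the array median in all 6 arrays, against 36.9% of all probe sets, and they belonged to 14 genes. In all 3 parental arrays 19 (34.5%) exceeded it, against 41.0% of all probe sets, and in all 3 resistant arrays 24 (43.6%), against 40.8%. Another 13 probe sets did not exceed the median on any array. The guanylate-binding protein GBP1 and the interferon-induced proteins IFI44 and IFI44L had no probe set above the median on any array, whereas the 3 IFITM genes had signals of at least 72.3 array medians on every array. A signal over the median of a MAS5 array is not by itself a detection call.

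No interferon-stimulated gene was called between resistant and parental cells. The 28 probe sets of 21 genes whose mean signal reached the array median were tested by limma with all 26692 such probe sets, and a call required both an adjusted p below 0.05 and at least a 2-fold difference. Among the 28, 0 were called higher and 0 lower, against 2.33% of all tested probe sets called (1.2% higher and 1.14% lower). At an unadjusted p under 0.05 the limma count was 6 of 28 (21.4%), against 18.7% of all tested probe sets by limma. Of these 6, 5 were higher in resistant cells and 1 lower. The test that the study's methods name, run on each probe set alone, gave 4 of 28, with 0 called after adjustment. The share of all tested probe sets under that test is not given here, so the 4 cannot be compared with a background. The log2 difference, resistant minus parental, was above 0 in 18 and below 0 in 10. Its median was 0.20, against 0.03 over all tested probe sets. Of the 28, 5 had a mean under the array median in 1 group and reached the filter through the other: IFIT1, OASL and IFI27 through parental cells, USP18 and a RIGI probe set through resistant cells. The smallest adjusted p among the members was 0.0868. Every resistant array was above every parental array in 7 of the 28 and below in 2, which is 32.1%, against 27.2% of all tested probe sets (14.9% above and 12.3% below). The RIGI probe set that reached the filter through resistant cells is among the 7 above and among the 5 higher at an unadjusted p under 0.05. OASL, which reached it through parental cells, is among the 2 below.

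**Figure D2:**
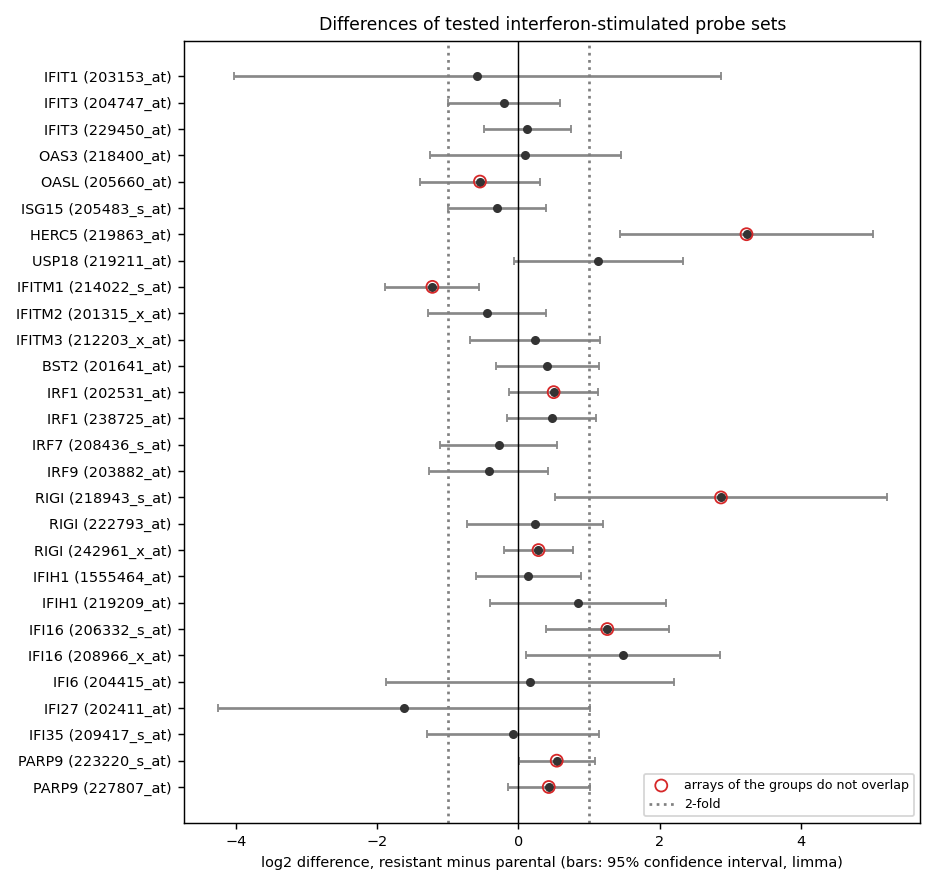
Log2 difference, resistant minus parental, with its 95% confidence interval from limma (n = 3 arrays per group), for each of the 28 tested probe sets, by gene. Dotted lines mark a 2-fold difference and open circles the 9 probe sets whose groups do not overlap, with HERC5 at 3.23 and IFITM1 at -1.22.

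In the ISG15 system, the ubiquitin-like protein ISG15 is attached to other proteins, HERC5 is the ligase that attaches it and USP18 removes it. HERC5 was at 0.538, 4.83 and 2.04 in the parental arrays and at 14.8, 14.8 and 20.05 in the resistant arrays. Each resistant array was above each parental array, with means of 2.47 ± 2.18 and 16.5 ± 3.05 (SD, n = 3). The log2 difference was 3.23 (SE 0.75, 95% confidence interval 1.43 to 5.02), or 9.37-fold, with an adjusted p of 0.0907 (limma). Without parental array 1, where HERC5 was lowest, the difference was 2.38 and the adjusted p 0.0410, and over 18 alternative settings the adjusted p ran from 0.0107 to 0.248. ISG15 itself was at 55.3, 42.2 and 32.6 in the parental arrays and 42.6, 34.2 and 27.5 in the resistant arrays. These groups overlapped, and the log2 difference of -0.31 had an interval of -1.0 to 0.39 (adjusted p 0.608, limma). USP18, shown with these although the rule for naming did not require it, was at 1.22, 0.992 and 0.567 and then at 2.902, 2.53 and 0.9804. Resistant array 3 lay within the parental range, and the difference of 1.13 had an interval of -0.06 to 2.32 (adjusted p 0.290).

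Among the membrane proteins that restrict virus entry or release, the 3 IFITM genes had the highest signals of the set. IFITM1, an inhibitor of virus entry, was at 207, 262 and 334 in the parental arrays and at 142, 93.6 and 108 in the resistant arrays. The resistant values were all below the parental ones, with means of 114.5 ± 24.8 and 267.7 ± 63.5 (SD, n = 3). The log2 difference was -1.22 (SE 0.278, 95% confidence interval -1.89 to -0.55), 2.33-fold lower, with an adjusted p of 0.0868 (limma). Its adjusted p was 0.0559 without parental array 1, and over 17 alternatives it ran from 0.0106 to 0.294. The relatives IFITM2 and IFITM3 had groups that overlapped. IFITM2 was at 187, 121 and 89.7 in parental cells and 122, 89.8 and 72.3 in resistant cells (log2 difference -0.45, adjusted p 0.529). IFITM3 was at 256, 138 and 106 and at 236, 179 and 145 (0.24, adjusted p 0.782), and parental array 1 was the highest of its group for both. The IFITM genes are alike in sequence and their probe sets are of the kinds that can bind related transcripts, so the signals of the 3 genes may be partly shared. BST2, or tetherin, which holds budding virus at the cell surface, was at 29.5, 19.4 and 28.01 and at 40.02, 39.2 and 23.97 (0.41, adjusted p 0.511).

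**Figure D3:**
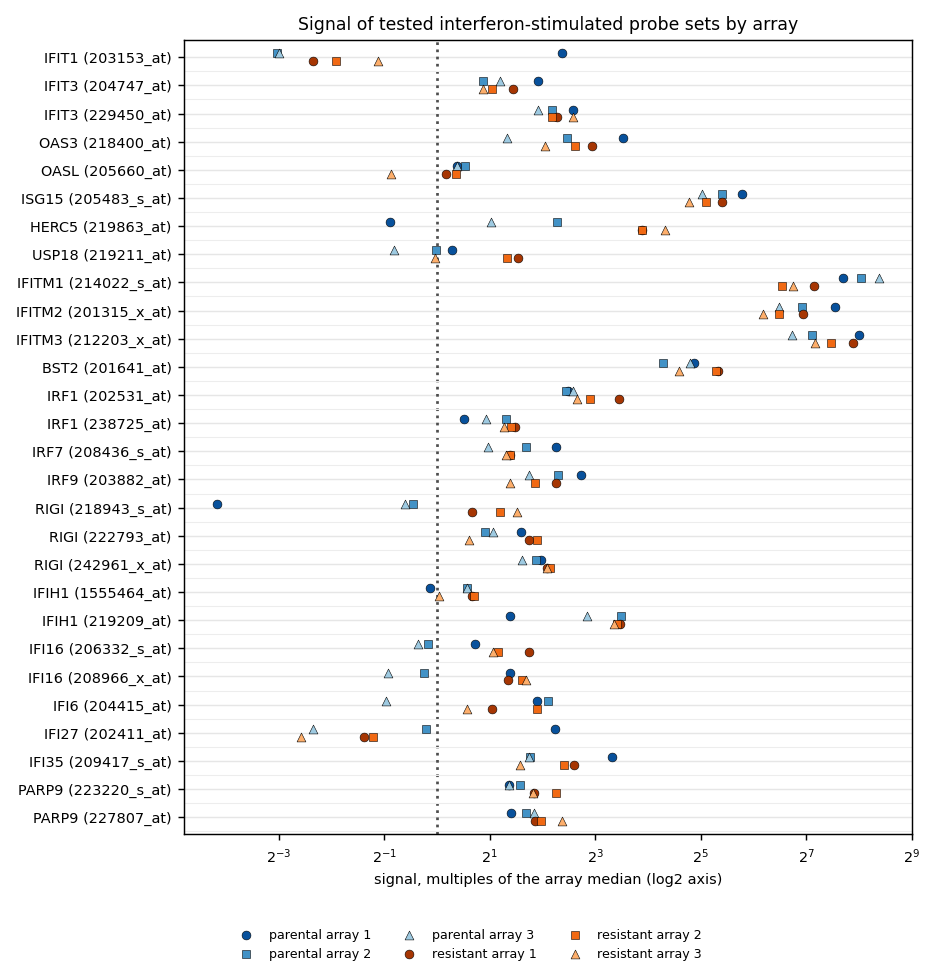
Signal of the 28 tested probe sets on each of the 6 arrays (log2 axis, array medians), with parental arrays in blue and resistant arrays in orange. The dotted line is the array median. The IFITM genes lie highest, IFIT1 and IFI27 have 1 high parental array each, and HERC5 has all 3 resistant arrays above the parental arrays.

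The nucleic acid sensors had 7 tested probe sets, each with a log2 difference above 0, and none passed the test, with adjusted p from 0.142 to 0.846. The 7 belonged to only 3 genes, RIGI, IFIH1 and IFI16, so they are not 7 separate readings. Without parental array 1, 1 of the 7, an IFIH1 probe set at 0.14, was at -0.10. RIGI detects RNA with a 5′ triphosphate and was read by 3 tested probe sets. The brightest was at 3.95, 3.69 and 3.05 in the parental arrays and 4.25, 4.43 and 4.25 in the resistant arrays (log2 difference 0.28, adjusted p 0.505). The dimmest was at 0.0559, 0.733 and 0.654 and at 1.58, 2.29 and 2.88 (adjusted p 0.191, limma). It reached the level filter through the resistant arrays alone, with every parental array under the median and parental array 1 lowest, so its fitted size is not given as a measured fold. Without parental array 1 its adjusted p was 0.0505. Resistant arrays were all above parental arrays in both probe sets. The remaining RIGI probe set was at 3.01, 1.87 and 2.08 and at 3.37, 3.71 and 1.52 (0.23, adjusted p 0.793), with overlapping groups.

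IFI16, which binds DNA in the nucleus and cytoplasm, was read by 2 tested probe sets. The brighter was at 2.63, 0.8397 and 0.528 in parental cells and at 2.56, 3.06 and 3.21 in resistant cells (log2 difference 1.48, interval 0.10 to 2.85, adjusted p 0.236, limma). Parental array 1 alone reached the resistant range. Without it the difference was 2.14 and the adjusted p 0.0194, and over 17 alternatives the adjusted p ran from 0.0194 to 0.475. The other was at 1.66, 0.885 and 0.7795 and at 3.36, 2.24 and 2.08, without overlap (1.26, interval 0.39 to 2.13, adjusted p 0.142), and at an adjusted p of 0.0451 without parental array 1. IFIH1, or MDA5, the sensor of long double-stranded RNA, was at 2.62, 11.3 and 7.205 and at 11.2, 10.6 and 10.3 (0.84, adjusted p 0.433). Here parental array 1 was the low one, and without it the difference was 0.25.

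Among the transcription factors of the response, IRF1 was read by 2 probe sets, the brighter at 5.58, 5.48 and 5.97 in the parental arrays and 10.9, 7.47 and 6.29 in the resistant arrays. The groups did not overlap, though the lowest resistant array was close to the highest parental one, and the log2 difference was 0.50 (adjusted p 0.366). The other IRF1 probe set gave 0.47 (adjusted p 0.388). IRF7, which amplifies interferon production, was at 4.76, 3.24 and 1.94 and at 2.602, 2.60 and 2.48 (-0.28, adjusted p 0.707), and the difference was 0.03 without parental array 1. IRF9, the DNA-binding partner in ISGF3, was at 6.68, 4.89 and 3.35 and at 4.78, 3.65 and 2.61 (-0.42, adjusted p 0.563). For both, parental array 1 was the highest of the 6 arrays.

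The IFIT family includes proteins that bind viral RNA and restrain its translation, and 2 of its 4 genes in the set were tested. IFIT3 was read at 5.94, 4.51 and 3.77 in parental arrays and 4.83, 4.53 and 6.0 in resistant arrays (log2 difference 0.13, interval -0.49 to 0.74, adjusted p 0.832). Its second probe set differed in direction, at 3.78, 1.82 and 2.29 and at 2.72, 2.07 and 1.83 (-0.20, adjusted p 0.781), and was at 0.09 without parental array 1. IFIT1 was chosen for naming after its values were seen. It was at 5.17 in parental array 1 but at 0.122 and 0.126 in the other parental arrays and at 0.195, 0.264 and 0.461 in the resistant arrays, so that 1 array carried 41.7 times the mean of the other 2 parental arrays. The log2 difference was -0.58 (adjusted p 0.862), and without parental array 1 the probe set was under the level filter.

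OAS enzymes make 2-5A, which activates RNase L. OAS3 was at 11.5, 5.55 and 2.51 and at 7.67, 6.16 and 4.15 (log2 difference 0.10, adjusted p 0.947), with the resistant values inside the parental range. OASL, a relative without that activity, was at 1.301, 1.45 and 1.31 and at 1.12, 1.29 and 0.549. All resistant arrays were below the parental arrays by a narrow margin, and the difference was -0.55 (adjusted p 0.454). OAS1 and OAS2 were not tested because their mean signals were under the array median, but 2 probe sets of OAS2 and 1 of OAS1 had every resistant array below every parental array. The brighter of these OAS2 probe sets was at 0.895, 1.19 and 0.882, and at 0.0569, 0.072 and 0.0686 in resistant cells. With no level filter this probe set was called lower (adjusted p 0.0329, limma), but its resistant values are in the range where MAS5 signals are least precise, so no size is given. The OAS1 probe set was at 2.06, 0.733 and 0.315 and at 0.0488, 0.136 and 0.127, in that same low range.

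Of the other induced genes, PARP9, which acts with the ubiquitin ligase DTX3L, had both probe sets without overlap. The brighter was at 2.65, 3.21 and 3.57 and at 3.65, 3.93 and 5.17 (log2 difference 0.43, adjusted p 0.394). The other was at 2.57, 2.97 and 2.58 and at 3.57, 4.79 and 3.55 (0.54, unadjusted p 0.0482, adjusted p 0.262). IFI6, an inhibitor of apoptosis and of flavivirus replication, was at 3.75, 4.298 and 0.512 and at 2.06, 3.74 and 1.49 (0.16, adjusted p 0.941), with parental array 3 the lowest. IFI35 was at 10.02, 3.39 and 3.35 and at 6.05, 5.31 and 3.0 (-0.08, adjusted p 0.952), a sign that turned to 0.45 without parental array 1. IFI27, named after its values were seen, was at 4.699 in parental array 1, at 0.8702 and 0.197 in the other parental arrays and between 0.167 and 0.432 in resistant cells (-1.62, adjusted p 0.475), and like IFIT1 it was under the level filter without that array.

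Low signals made up much of the set: 11 genes had no tested probe set, and 27 probe sets in all were under the filter. The GTPase MX1, which blocks influenza virus, ranged from 0.5804 to 1.21 over the 6 arrays, and MX2, which blocks HIV, from 0.196 to 1.06. The 4 probe sets of GBP1 ranged from 0.03497 to 0.967, those of IFIT2 from 0.09804 to 1.797, and those of IFIT5 from 0.0392 to 1.08. The exonuclease ISG20 ranged from 0.072 to 1.99, XAF1, a regulator of apoptosis, from 0.032 to 1.85, IFI44 from 0.02098 to 0.542, and IFI44L from 0.032 to 0.598. Among these 27, 1 probe set of GBP1 had every resistant array above the parental ones (3.7%), and 5 probe sets, of OAS1, OAS2, IFI44 and XAF1, had every resistant array below (18.5%). Over all 27921 probe sets under the filter these shares were 6.38% above and 5.29% below.

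**Figure D4:**
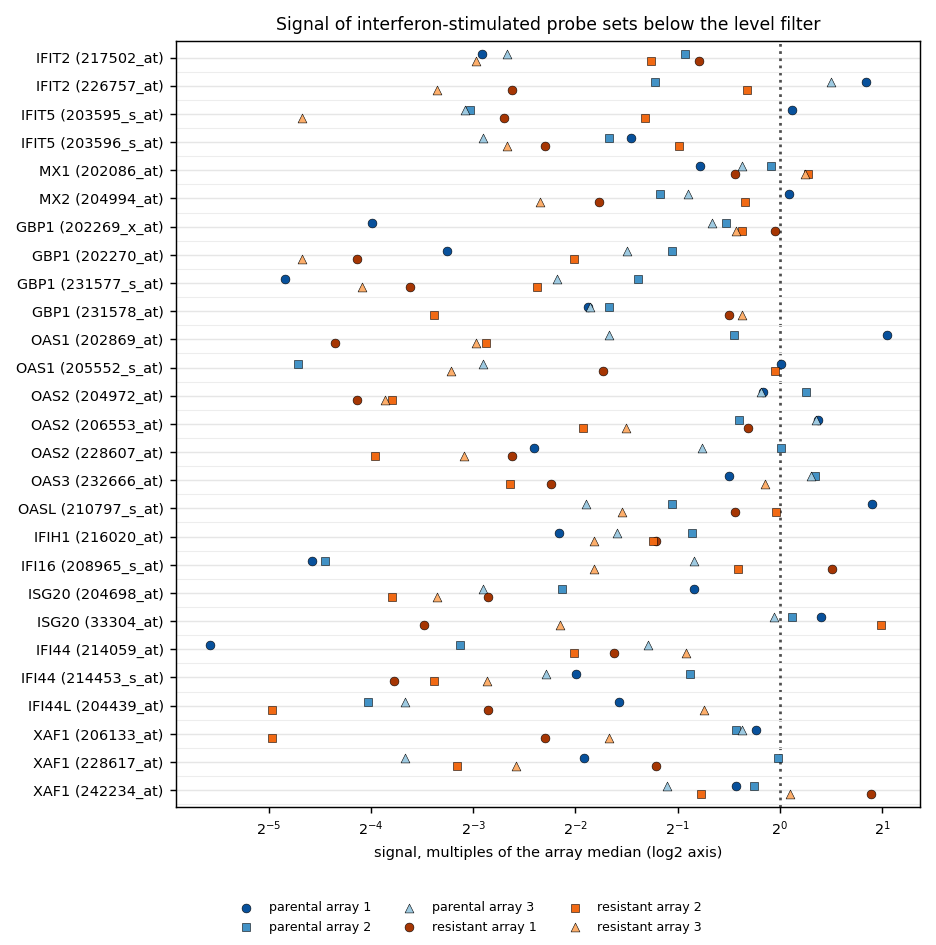
Signal of the 27 probe sets under the level filter on each array (log2 axis, array medians), with parental arrays in blue and resistant arrays in orange. Most points lie left of the dotted line at the array median, and 1 of the OAS2 rows has its 3 resistant arrays between 0.0569 and 0.072.

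Parental array 1 was the highest parental array for 29 of the 55 probe sets (52.7%), against 38.4% of all probe sets. In 13 of the 55 (23.6%, against 14.9% of all) it was more than 2 times the mean of parental arrays 2 and 3, and in 11 (20.0%, against 21.2%) it was under 0.5 times that mean. IFIT1, OAS1, IFIT5 and IFI27 stood at the high end, and 1 probe set each of IFI44 and RIGI at the low end, with HERC5 among the low ones. The array was thus both above and below its group within the set.

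**Figure D5:**
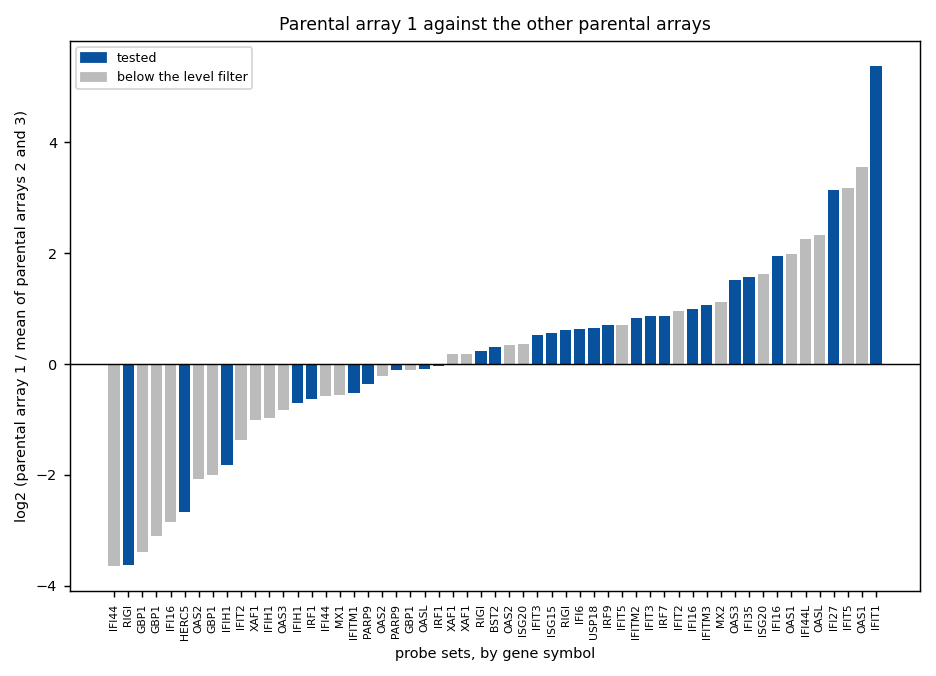
Log2 ratio of parental array 1 to the mean of parental arrays 2 and 3 for each of the 55 probe sets in order of size, in blue for tested probe sets and grey for those under the level filter. IFIT1 is at the right end, where the ratio is 41.7, and an untested IFI44 probe set at the left end.

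The rest of the interferon pathway was read from 119 further genes, of which 110 had a probe set and 74 were tested. Again 0 were called higher and 0 lower by limma, against 2.77% of the 11810 genes with a representative probe set. At an unadjusted p under 0.05 the count was 25 (33.8%), against 20.0% of all genes. Of 21 interferon genes, 18 had a probe set and 1 reached the filter, and 12, IFNB1 and IFNG among them, were under the median on every array. The 6 receptor subunits all had differences below 0, with a median of -0.79. In 4, IFNAR1, IFNAR2, IFNGR2 and IL10RB, the resistant arrays were all below the parental ones, against 14.2% of all genes by representative probe set. For IFNGR1 (-0.24) and IFNLR1 (-0.04) the groups overlapped. IFNAR2, the signalling subunit of the type I receptor, was at 13.7, 24.9 and 20.2 in parental cells and 9.301, 6.45 and 4.196 in resistant cells (log2 difference -1.59, adjusted p 0.0926). IFNGR2 was at 37.4, 49.2 and 41.2 and at 25.1, 21.2 and 14.9 (-1.08, adjusted p 0.104). These receptor genes are named after their values were seen, as are the genes that follow. None of the receptor differences passed the test.

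Of 60 other interferon-induced genes, 42 were tested, 25 with a difference above 0 and 17 below, with a median of 0.31, and 13 had every resistant array above every parental array and 4 below, against 16.1% and 14.2% of all genes. TAP1, a subunit of the peptide transporter of antigen presentation, had the lowest adjusted p, at 2.06, 3.66 and 2.898 in parental cells and 7.19, 6.86 and 6.24 in resistant cells (log2 difference 1.27, adjusted p 0.0731). The next were lower: TNFSF10, the death ligand TRAIL, was at 2.55, 3.46 and 2.61 and at 1.29, 1.53 and 0.775 (-1.30, adjusted p 0.0982). SAMHD1, which breaks down deoxynucleotides, was at 14.3, 14.4 and 18.9 and at 6.98, 3.6 and 8.16 (-1.41, adjusted p 0.105). Those that followed were higher in resistant cells: PARP10 (1.47, adjusted p 0.105, limma), TAP2 (0.76, adjusted p 0.130) and RSAD2 (2.54, adjusted p 0.132). DTX3L, the partner of PARP9, came after them, at 8.63, 9.22 and 7.02 and at 14.1, 12.6 and 17.7 (0.83, adjusted p 0.137). The largest differences of the list were those of RSAD2 and of GBP2 (2.25, adjusted p 0.178), which was at 0.587 in parental array 1. The groups did not overlap for any of these genes, and none passed the test. The sensing adaptors (10 tested, median 0.01), kinases and factors (8 tested, median 0.33) and a list of inhibitors that also held UBE2L6 (7 tested, median 0.19) had differences on both sides of 0. Of the kinases and factors, 3 had every resistant array above every parental array and 2 below, against 16.1% and 14.2% of all genes. JAK2 was at 7.71, 8.58 and 6.66 in parental cells and 16.3, 14.9 and 13.1 in resistant cells (0.95, adjusted p 0.0857, limma). The 2 wholly below were IRF3 (-0.93, adjusted p 0.117) and JAK1 (-0.73, adjusted p 0.183), and none of the list passed the test.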

How the data were processed

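Total RNA of 6 samples, 3 parental and 3 MTX-resistant, was hybridised to the Affymetrix HG-U133 Plus 2.0 array. The deposited values were linear intensities, 1 per probe set, computed by the authors with MAS5 (version not given in the sources used here). MAS5 signals are noisy at low intensity. Array medians were 12.7 to 14.3 for parental and 10.2 to 12.5 for resistant arrays, and each value was divided by its array's median, as the study's methods do. Values at or under 0.01 were set to 0.01 before log2. The 62 control probe sets were left out, and a mean of at least 1 array median took the place of the study's control-strength filter. Resistant and parental arrays were compared with limma 3.58.1 (R 4.3.3), two-sided, adjusted by Benjamini-Hochberg across all 26692 probe sets tested. The representative of a gene was the probe set whose mean log2 was highest. Genes were named from the platform annotation, in which 41097 probe sets name 1 gene, 1801 several and 11777 none, and 41043 of the first were matched by gene ID to RefSeq (GRCh38.p14). Levels of different probe sets also reflect their binding. The number of arrays limits the precision.

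Genes above the median in every array of a group by their representative are given for each array, the others by range unless marked. The members and lists were chosen with earlier results of these data known. The fit and the motif search were tested on simulated data. Alternatives covered scaling, filter, pseudocount, prior, the methods' t-test, the replicate block, shared-sequence probe sets and left-out arrays.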

Additional observations from a re-analysis of the deposited data

How the results depend on the processing

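Over all tested probe sets 622 were called. The count was 174 with no level filter, 1191 with a pseudocount of 1 array median, 1133 with limma's trended robust prior, 126 with the methods' t-test after Benjamini-Hochberg, 1014 without parental array 1 and resistant array 3, 385 without shared-sequence probe sets, and 204 (without resistant array 2) to 1080 (without parental array 1) when 1 array was left out. With values as deposited 39.5% of calls were higher in resistant cells, against 51.3%, and the median of all probe sets moved from 0.03 to -0.17. Same-numbered arrays did not deviate together (correlations of -0.007, -0.025 and -0.006), nor did differently numbered ones (-0.014 to 0.025). Such correlations cannot show whether the samples were paired by culture or batch. With a replicate block 269 were called, none a member.

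Member probe sets called were 0 with quantile, deposited or 75th percentile values, the t-test, the block or no shared-sequence probe sets. They were 1 without the filter (OAS2), 1 with the filter at 2 medians (IFITM1, adjusted p 0.0493), 1 with a pseudocount of 0.25 (HERC5, adjusted p 0.0470), 3 with 1 (IFITM1, HERC5 and RIGI), 2 with the trended prior (IFITM1 and HERC5), 1 without parental array 1 and resistant array 3 (IFI16), and 0 to 3 when 1 array was left out, the 3 without parental array 1 (2 IFI16 probe sets and HERC5). The RIGI call was of its dimmest tested probe set, which reached the level filter through the resistant arrays alone. The brightest RIGI probe set was at 0.22 with a pseudocount of 1 (adjusted p 0.568, limma). By representative probe set, member genes called were 1, 1, 2, 2 and 1 with the filter at 2 medians, the pseudocounts of 0.25 and 1, the trended prior and both arrays left out, and 0 to 2 over single arrays. The median over members ran from -0.00 (deposited values) to 0.40 (without parental array 1).

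Near 0, signs turned as follows. With deposited values IFI6 was at -0.042, IFIT3 at -0.075 and OAS3 at -0.10, and with a pseudocount of 1 IFI6 was at -0.026. When 1 array was left out, the differences ran from -0.35 to 0.45 for IFI35, from -0.83 to 0.70 for IFI6, from -0.027 to 0.30 for IFIT3, from -0.041 to 0.60 for IFITM3, from -0.62 to 0.029 for IRF7 and from -0.46 to 0.64 for OAS3, with the sign turned without parental array 1 for IFI35 and IRF7, without parental array 3 for IFI6, IFIT3, IFITM3 and OAS3, without resistant array 1 for OAS3, without resistant array 2 for IFI6 and without resistant array 3 for IFI35. Without parental array 1 and resistant array 3 IFI35 was at 0.75, IFITM2 at 0.0091, IRF7 at 0.052, IRF9 at 0.047 and ISG15 at 0.041. The causes were not tested. Among single-gene values 335 kept their direction and side of the threshold, 18 turned in sign and 9 newly passed it. Low signal limits the 27 probe sets under the filter.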
